A study of Mus musculus with 24 samples.

Results

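The 86 genes described here encode the proteins of the cytosolic ribosome in the mouse: 33 for the small subunit and 53 for the large one, out of 21887 protein-coding genes. They were chosen by symbol alone, as Rpl or Rps with a number, plus Rplp0, Rplp1, Rplp2, Rpsa and Fau. The ribosomal S6 kinases and Rps19bp1, which are no part of the ribosome, were left out. 8 members carry an l suffix (Rpl10l, Rpl22l1, Rpl32l, Rpl36al, Rpl39l, Rpl3l, Rpl7l1 and Rps27l) and are paralogs of a core gene. The spans of the members ran from 592 to 11774 bp, with a median of 3169.5 bp against 17169 bp for all protein-coding genes.

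Chromatin immunoprecipitation and sequencing had been carried out in V6.5 mouse embryonic stem cells of the strain C57BL/6-129, a line used here without any added allele or transgene named in the labels. All cells, controls included, were grown on irradiated feeder cells with LIF and serum and then, before synchronization, on gelatin with 2i, a pair of inhibitors of Mek1 and Gsk3. Asynchronous cells were compared with mitotic cells, shaken off after 7 h in nocodazole, which blocks the spindle. Peak lists were analysed for Klf4 (3 asynchronous and 3 mitotic libraries), Oct4 and Sox2 (1 and 2 each) and acetylated lysine 27 of histone H3, H3K27ac (2 and 2).

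A ribosome is built from ribosomal RNA and a copy of nearly every core protein, so growing cells transcribe their genes at high and closely matched rates. Most transcription stops in mitosis and resumes as cells leave it. H3K27ac marks active promoters and enhancers, and Klf4, Oct4 and Sox2 are transcription factors that maintain pluripotency. Many ribosomal protein transcripts begin with a run of pyrimidines at the first base, the 5′ terminal oligopyrimidine tract, through which mTOR signalling controls their translation.

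Of the 86 members, 66 had an entry in the RefSeq promoter table (GRCm38.p6, the mm10 build), which holds 250 bases before and 50 after each transcript start. 4 promoters are shown because a Klf4 region of the asynchronous cells overlapped each of them. At Rps10 and Rps19 that region also held a Klf4 peak of 2 mitotic libraries, and at Rpl14 and Rpl27 of none. Each sequence is the 250 bases before a start, 5′ to 3′ on the gene strand. The window of Rps10 is chr17:27635245-27635494 (minus strand), that of Rps19 chr7:24884342-24884591 (plus), that of Rpl14 chr9:120571267-120571516 (plus) and that of Rpl27 chr11:101441995-101442244 (plus). Capitals mark matches on either strand to GGGCGG (the GC box of Sp and Klf factors), CCGGAAG (an Ets site, in Rps10) and CNCACCC (a Klf site, in Rpl27).
Rps10: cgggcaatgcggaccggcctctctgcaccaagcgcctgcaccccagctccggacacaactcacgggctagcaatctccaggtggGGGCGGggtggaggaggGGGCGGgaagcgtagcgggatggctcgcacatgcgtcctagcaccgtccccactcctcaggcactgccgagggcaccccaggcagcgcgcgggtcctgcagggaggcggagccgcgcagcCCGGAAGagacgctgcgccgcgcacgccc
Rps19: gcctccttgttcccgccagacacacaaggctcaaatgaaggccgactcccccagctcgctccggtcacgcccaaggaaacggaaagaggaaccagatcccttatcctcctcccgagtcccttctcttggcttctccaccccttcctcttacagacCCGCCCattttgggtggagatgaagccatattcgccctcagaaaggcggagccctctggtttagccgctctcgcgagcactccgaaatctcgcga
Rpl14: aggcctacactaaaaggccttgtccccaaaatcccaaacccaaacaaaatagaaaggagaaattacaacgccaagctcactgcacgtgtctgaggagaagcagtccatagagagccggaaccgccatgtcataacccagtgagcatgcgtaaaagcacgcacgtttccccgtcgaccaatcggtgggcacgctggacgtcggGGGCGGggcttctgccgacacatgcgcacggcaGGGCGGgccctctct
Rpl27: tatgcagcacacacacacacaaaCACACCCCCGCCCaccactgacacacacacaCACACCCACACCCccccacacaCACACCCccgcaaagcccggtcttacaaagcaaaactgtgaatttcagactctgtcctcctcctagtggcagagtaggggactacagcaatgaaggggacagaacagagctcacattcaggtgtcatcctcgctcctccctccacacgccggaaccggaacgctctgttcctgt

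The Klf4 region of Rps10 covered all 250 bases, as did that of Rps19, and those of Rpl14 and Rpl27 covered 235 and 88 bases. The CNCACCC matches of Rpl27 lay in a stretch of CA repeats at the far end of its window, and the other 3 promoters had none. GC boxes were present in all 4, but that of Rpl27 lay in the same far stretch, outside its Klf4 region. Rpl21 had no promoter entry. The strongest Klf4 region of Rpl18 was centred 409 bp from the nearer edge of the gene span. That was 3013 bp upstream of the nearest listed start, which lies inside the span. A second, weaker one, also lost, was centred 11 bp upstream of that start, with a highest fold of 5.04.

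Start sites with a pyrimidine tract were more frequent among members than among all genes. The tract CTTTCC, searched on the gene strand, occurred within 20 bases of the start in 10 of 66 member promoters (15.2%) against 1.84% of 17492 protein-coding genes. A match anywhere in those bases counted. At Rpl39l the tract lay before the start, and at Rpl13a and Rpl18 the first base was a G. 5 of the 10 starts are shown as 30 bases, 15 before the first base and 15 from it on, with the tract in capitals. All 5 have a C as first base and only C or T from there through the tract. They are chr11:114668565-114668594 (plus) for Rpl38, chr3:90213634-90213663 (minus) for Rps27, chr7:4792950-4792979 (plus) for Rpl28, chr14:18270972-18271001 (minus) for Rpl15 and chr17:27635230-27635259 (minus) for Rps10.
Rpl38: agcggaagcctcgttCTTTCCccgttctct
Rps27: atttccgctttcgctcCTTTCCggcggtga
Rpl28: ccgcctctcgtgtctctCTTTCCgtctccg
Rpl15: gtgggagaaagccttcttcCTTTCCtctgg
Rps10: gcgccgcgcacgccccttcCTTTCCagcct

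Across the 300 bases of a promoter, CCGGAAG was found in 25 of 66 members (37.9%) against 11.9% of all genes and 18.2% of the genes with H3K27ac. CTTTCC was found in 22 (33.3%) against 13.8% and 14.4%. 10 member promoters held both and 37 (56.1%) held either, against 23.9% of all genes. AAGATGG, the core of a Yy1 site, was in 11 (16.7%) against 6.35% of all genes. CNCACCC and the Sox and octamer sites were no more frequent than among all genes. CNCACCC was in 14 (21.2%) against 32.2% of all genes. ATTGTT (Sox) was in 2 (3.03%) against 9.50%, and ATGCAAA (the octamer core of Oct4) in 2 (3.03%) against 4.17%. GGGCGG, the GC box of Sp and Klf factors, was in 40 (60.6%) against 46.3% of all genes and 63.4% of the genes with H3K27ac. TATAAA was in 8 (12.1%) against 13.3% of all genes and 6.87% of the genes with H3K27ac. All motifs but CTTTCC were searched on both strands, letters of different motifs may overlap, and a match is a run of letters, not a bound site.

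The value of a peak below is the fold enrichment over local background that the authors' peak caller gave it, and read depth was unknown. A gene had a peak when a peak midpoint lay inside its span or within 2 kb of it. 45 members had another protein-coding gene within 2 kb, so a peak there may belong to the neighbour. Lists ran from 1246 to 47475 peaks. In the 4 H3K27ac libraries, 11 to 12 of 12 naive stem cell markers had a peak, as did 1 to 2 of 10 feeder fibroblast markers and 3 to 6 of 10 neural progenitor markers. By the codes in their titles, the asynchronous and the mitotic H3K27ac libraries belong to different projects. Project and cell cycle state therefore cannot be told apart for this mark. For Klf4, only 1 project held both states, and the other libraries came from projects with 1 state of it. The tests took no account of project. Nothing in the labels says that replicates were separate cultures, so p-values measure only the spread between these libraries.

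H3K27ac was present at nearly every ribosomal protein gene in both states. A peak was found at 85 and 85 of 86 members in the asynchronous libraries (98.8% and 98.8%) and at 84 and 84 in the mitotic ones (97.7% and 97.7%). The same shares over all protein-coding genes were 60.7% and 60.3% against 54.3% and 51.0%. A gene was called kept when it had a peak in both asynchronous libraries and in both mitotic ones: 83 of 86 members were, where 45.5% of all genes and 28.6% of the 8797 genes no longer than the longest member (short genes below) were. Of the genes with H3K27ac in both asynchronous libraries, 83 of 85 members were kept, where 78.4% of all genes were.

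No member lost its H3K27ac peak in both mitotic libraries, a call made for 6.44% of all genes. The share of members was 1.16 percentage points lower in mitosis, and the groups did not overlap. The two-sided exact permutation test on 2 against 2 libraries gave p = 0.333, the smallest it can give (adjusted p = 0.333 over 9 comparisons). With the strongest peaks in lists of equal length, the difference was 0. Members stood 38.1 and 38.6 points above all genes in asynchronous cells and 43.3 and 46.7 points above them in mitosis. With member shares near their maximum, the wider gap came from the lower share of all genes.

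**Figure D1:**
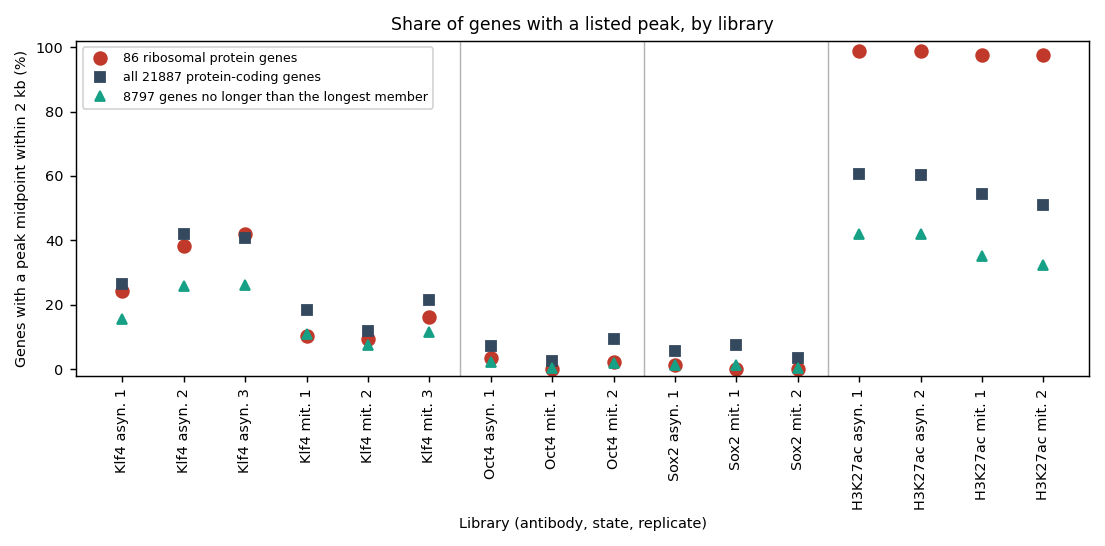
Percent of genes with a peak midpoint within 2 kb of the gene span (y axis) in each of 16 libraries (x axis; asyn., asynchronous; mit., mitotic), for the 86 ribosomal protein genes, all protein-coding genes and genes no longer than the longest member. The members lie at 97.7% to 98.8% in the 4 H3K27ac libraries, where all genes lie at 51.0% to 60.7%. For Klf4, Oct4 and Sox2 the members lie below all genes in every library but Klf4 asynchronous 3 (41.9% against 40.7%). They lie above the short genes in 5 of 6 Klf4, 2 of 3 Oct4 and 0 of 3 Sox2 libraries.

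The 3 members outside the kept call were all paralogs. Rpl32l, a 592 bp gene on chromosome 10, had no peak in any library. Short copies such as this may share reads with their parent genes, and how such reads were handled is not known here. Rpl10l, a testis-expressed copy of Rpl10, had folds of 4.04 and 4.07 in asynchronous cells, 4.07 in mitotic replicate 1 and no peak in mitotic replicate 2. Rpl3l, the muscle form of Rpl3, had 5.96 and 5.12 in asynchronous cells, none in mitotic replicate 1 and 3.94 in replicate 2. Rpl10l and Rpl3l each had a peak in 1 mitotic library and were called intermediate, as 6.07% of all genes were. With mitotic replicate 1 or 2 left out, 1 member (Rpl10l or Rpl3l) counted as lost.

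The H3K27ac peaks of most other members were among the strongest listed. The strongest peak of a member ranked at a median percentile of 98.0 and 97.7 in the asynchronous lists and 95.7 and 94.8 in the mitotic lists. For all genes of the asynchronous set the medians were 81.9, 81.2, 78.2 and 75.0. Members whose strongest peak lay in the top 10% of its list numbered 80, 79, 68 and 64 of 85, or 94.1%, 92.9%, 80.0% and 75.3%, against 31.3%, 30.9%, 23.2% and 19.3% of all genes of that set.

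Among small subunit genes, Rps19, mutated in Diamond-Blackfan anaemia, had the highest fold of the first asynchronous list among members, 53.2, followed by 42.7 in the second and 39.0 and 31.9 in mitosis. Rpsa, also known as the laminin receptor, had 42.5 and 41.7, then 22.7 and 24.2. The lowest percentile over the 4 lists was 99.6 for Rps19 and 98.9 for Rpsa. Rps6, the substrate of the S6 kinases, had 27.1, 26.5, 15.9 and 15.8. Fau, made as a fusion with a ubiquitin-like protein, had 26.1, 24.0, 11.3 and 13.5. The small subunit medians were 32.8, 28.3, 14.9 and 15.8.

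Among large subunit genes, Rpl17 was the strongest in asynchronous cells, with 49.1 and 44.3, and had 23.3 and 22.5 in mitosis. Rpl5 and Rpl11 bind Mdm2 when ribosome assembly fails. Rpl5 had 30.6 and 29.2 in asynchronous cells and 16.3 and 19.1 in mitosis. Rpl11 had 31.6 and 34.3, then 14.5 and 13.3. Rplp0, the base of the ribosomal stalk, had 28.1, 25.6, 10.8 and 11.5. The large subunit medians were 28.9, 25.8, 14.5 and 13.8.

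In both mitotic lists the highest fold among members was that of Rps27l, and Rpl19 and Rps19 came next. Rps27l, a paralog of Rps27 induced by p53, had 45.9 and 46.4 in mitosis and 31.7 and 26.0 in asynchronous cells. It ranked at percentiles 99.97 and 99.95 of the mitotic lists and 98.4 and 97.3 of the asynchronous lists. Rpl19 had 37.8 and 43.8 in mitosis and 32.2 and 30.8 in asynchronous cells, at percentiles 99.86, 99.93, 98.5 and 98.7. In both genes the mitotic and asynchronous folds did not overlap, and folds of lists of unknown depth were not compared further. Rps27l and Rpl19 were singled out after their values were seen.

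**Figure D2:**
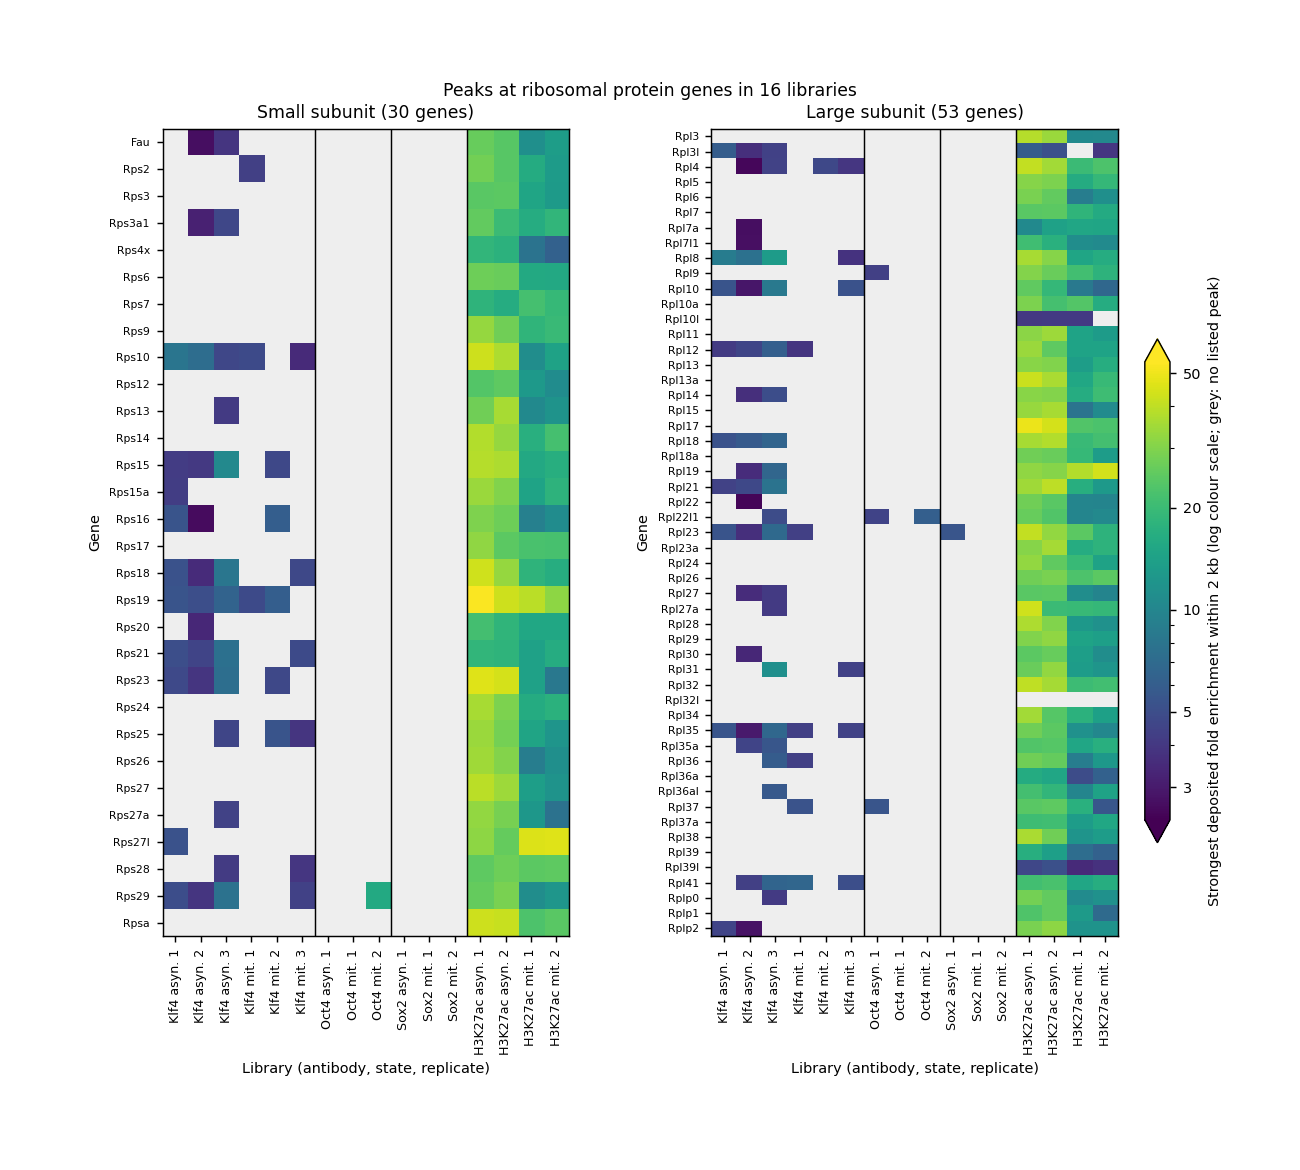
Strongest deposited fold within 2 kb (log colour scale; grey, no listed peak) for 30 of the 33 small and all 53 large subunit genes (rows) in 16 libraries (columns; asyn., asynchronous; mit., mitotic). H3K27ac fills all rows but Rpl32l, with 1 mitotic library missing at Rpl10l and Rpl3l; Klf4 is scattered and is sparser in the mitotic columns; Oct4 is seen at 4 genes and Sox2 at 1.

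The 4 X-linked members, which encode core proteins, had lower median folds than the autosomal ones in every list. Rps4x had folds of 18.7 and 17.7 in asynchronous cells and 7.85 and 6.34 in mitosis. Rpl10 had 25.2, 19.0, 8.48 and 6.75, Rpl36a had 16.3, 15.1, 4.94 and 6.34, and Rpl39 had 17.0, 14.0, 7.27 and 6.34. Their medians were 17.8, 16.4, 7.56 and 6.34. Those of the 74 autosomal members without an l suffix were 31.2, 28.4, 15.1 and 15.3. Over all genes of the H3K27ac asynchronous set the medians were 9.69, 8.88, 5.23 and 5.48 on the X and 12.0, 11.3, 7.27 and 7.21 on autosomes, so X-linked genes were lower there as well. This grouping was made after the values were seen and is a description.

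Paralogs with an l suffix split into those with and without strong H3K27ac. Rps27l, Rpl22l1, Rpl36al and Rpl7l1 had folds of 17.3 to 31.7 in asynchronous cells. Rpl22l1, a paralog of Rpl22, had 26.3 and 23.3, then 9.88 and 10.4 in mitosis. Rpl39l, known for its expression in testis, was called kept with folds of only 4.67 and 5.12, then 3.49 and 3.75. Rpl39l, Rpl10l and Rpl3l ranked between percentiles 7.45 and 49.4 of the lists in which they had a peak.

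**Figure D3:**
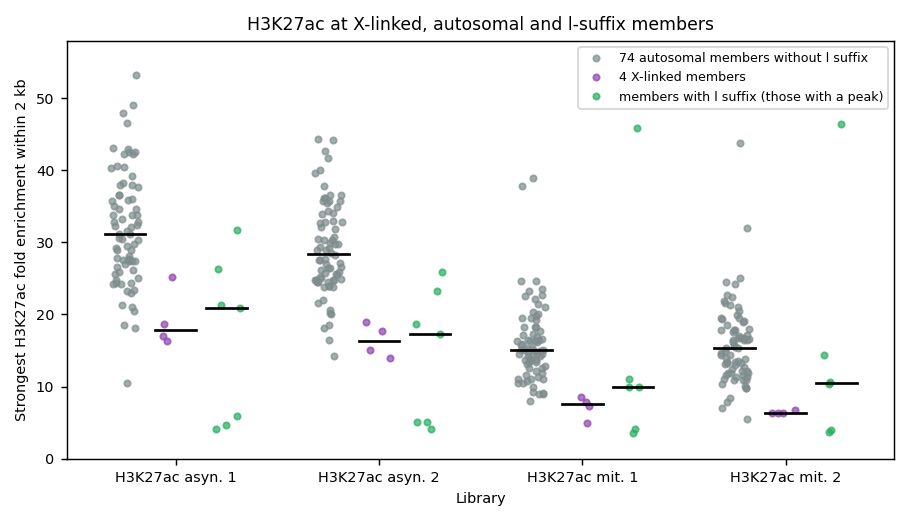
Strongest H3K27ac fold within 2 kb (y axis, linear) in 4 libraries (x axis), 1 point a gene and bars at medians, for autosomal members without l suffix, X-linked members and l-suffix members with a peak. X-linked medians of 17.8, 16.4, 7.56 and 6.34 lie under the autosomal 31.2, 28.4, 15.1 and 15.3, and the highest l-suffix points in mitosis, 45.9 and 46.4, are Rps27l.

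H3K27ac covered most of the length of these short genes. Of the 85 members with the mark in both asynchronous libraries, 67 and 63 had over 50% of their span covered in asynchronous cells, and 71 and 77 in mitosis. The same held for 4.69%, 4.42%, 3.93% and 3.76% of all genes of that set, and for 15.5%, 14.6%, 13.4% and 13.0% of the short ones. The median share of a member's span that was covered was 74.5%, 69.9%, 74.7% and 82.0%, in that order of libraries. Among members called kept, those with the most covered bases in their 2 kb window in asynchronous cells were Rpl23 (7209 and 7772), Rps15a (6332 and 7250), Rpl13a (6863 and 6654), Rps19 (6111 and 6314) and Rpl3 (6184 and 6012). Rpl23 and Rpl13a have another protein-coding gene within 2 kb, so some of these bases may belong to the neighbour. Those with the fewest were Rpl39l (730 and 317), Rpl27 (1093 and 1196), Rpl22l1 (1356 and 1215), Rps27l (1634 and 1939) and Rpl29 (1877 and 1893).

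Around the listed starts, H3K27ac covered less of the kb before the start and more of kb 2 and 3 after it in the mitotic libraries. The 66 members with a promoter entry were aligned at their most upstream start, and the windows were chosen after the profile had been seen. At members shorter than 3 kb, the window of kb 2 and 3 ran past the gene end. At some members, among them Rpl18, Rpl19, Rpl38 and Rps27l, the listed start lay inside the span. Some or all of the kb before it was then part of the gene. In the kb before the start, H3K27ac covered a mean of 68.6% and 64.2% of the bases in asynchronous cells and 58.6% and 58.6% in mitosis. In the first kb it covered 95.9% and 95.7%, then 93.0% and 93.4%. In kb 2 and 3 it covered 57.9% and 54.8%, then 62.5% and 67.2%.

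The groups did not overlap in any of the 3 windows, and each exact permutation test gave p = 0.333, the smallest possible for 2 against 2 libraries (adjusted p = 0.333 over 9 comparisons). With only peaks of a −log10 q of at least 5, the difference in kb 2 and 3 went from -8.46 to -4.97 points and the groups overlapped (exact permutation p = 0.667). Genes with H3K27ac in both asynchronous libraries, 10224 with a start, had means of 45.3% and 42.2%, then 34.6% and 33.8%, before the start. Their first kb was covered by 63.7% and 62.3%, then 49.1% and 46.9%. Kb 2 and 3 of these genes had 11.7% and 10.8%, then 10.4% and 10.3%. For the short genes among them, kb 2 and 3 had 15.7% and 14.5%, then 14.2% and 13.9%. These genes were chosen on the asynchronous lists, so their lower coverage in mitosis follows in part from the choice.

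Counted gene by gene on the means of each state, 37 of 66 members had more of kb 2 and 3 covered in mitosis, a call made for 19.6% of the marked genes, and 24 had less, against 26.0%. Coverage was equal at 5 members and at 5563 of the 10224 marked genes. Of those that differed, 60.7% of members and 43.1% of marked genes had more in mitosis. Before the start, 36 members had less coverage in mitosis, against 53.3% of marked genes, and 23 had more, against 23.8%. Among the 31 members with no other gene within 2 kb, coverage of kb 2 and 3 was 61.8% and 56.2% in asynchronous cells and 60.2% and 66.7% in mitosis, and the groups overlapped (difference -4.45 points against -8.46 for all 66). Before the start these 31 members had 62.1% and 56.0%, then 46.4% and 49.5%, with no overlap.

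**Figure D4:**
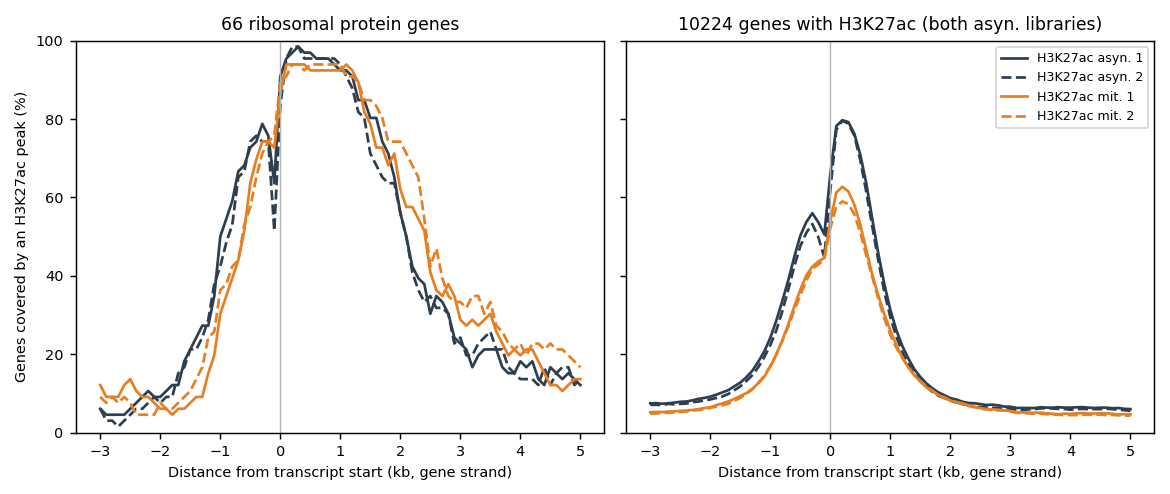
Percent of genes covered by an H3K27ac peak (y axis) at each distance from the transcript start along the gene strand (x axis, kb), for 66 ribosomal protein genes (left) and 10224 genes with H3K27ac in both asynchronous libraries (right). Dark lines are the 2 asynchronous libraries and orange lines the 2 mitotic ones. In the members, mean mitotic coverage is lower in the kb before the start (58.6% and 58.6% against 68.6% and 64.2%) and higher in kb 2 and 3 (62.5% and 67.2% against 57.9% and 54.8%).

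Klf4 was found at fewer ribosomal protein genes in mitosis than in asynchronous cells. A peak was listed at 21, 33 and 36 members in the 3 asynchronous libraries (24.4%, 38.4% and 41.9%) and at 9, 8 and 14 in the mitotic ones (10.5%, 9.30% and 16.3%). The means were 34.9% ± 9.23 (SD, n = 3) and 12.0% ± 3.74 (SD, n = 3). The groups did not overlap, and the difference of 22.9 points gave p = 0.1 in the two-sided exact permutation test, the smallest that 3 against 3 libraries can give (adjusted p = 0.333 over 9 comparisons). With only peaks of a −log10 q of at least 5, the means were 20.2% and 2.33%, the groups overlapped and the exact permutation test gave p = 0.2. In the one project that profiled Klf4 in both states, 36 members had a peak in asynchronous and 14 in mitotic cells.

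The share over all genes was lower in mitosis as well. Over all genes the shares were 26.4%, 42.1% and 40.7% in asynchronous cells and 18.5%, 11.9% and 21.6% in mitosis. With these subtracted, members stood at -1.98, -3.72 and 1.18 points in asynchronous cells and -8.03, -2.58 and -5.33 in mitosis, a difference of 3.81 points with overlapping groups (exact permutation p = 0.2). Against short genes, a comparison added after the data had been seen, members stood at 8.94, 12.5 and 15.8 points in asynchronous cells and -0.53, 1.91 and 4.68 in mitosis. That difference was 10.4 points and the groups did not overlap (exact permutation p = 0.1). When each list was shortened to its 3795 strongest peaks, the length of the shortest, a mean of 6.98% of members had a peak in either state.

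28 members had a Klf4 peak in at least 2 of 3 asynchronous libraries, the asynchronous set, where 37.2% of all genes and 22.7% of short genes did. They were 13 of 33 small subunit and 15 of 53 large subunit genes. Of the 28, 7 were called kept, with a peak in 2 or more mitotic libraries, 11 had none and were called lost, and 10 had a peak in 1 and were intermediate. Over all genes these calls were made for 14.7% (8.20% of short genes), 11.6% and 10.9%. Kept members were 25.0% of the asynchronous set, where 39.6% of all genes and 36.0% of short genes of that set were kept. No member had Klf4 in at least 2 mitotic and no asynchronous libraries, a call made for 0.146% of genes. Rps2 and Rpl37 had a peak in mitotic replicate 1 alone, with folds of 4.33 and 5.29. 47 members had a Klf4 peak in any library, against 51.9% of all genes.

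The counts of kept and lost members rested on single libraries, because with 2 libraries of a state left both needed a peak. Kept members numbered 3 without mitotic replicate 1, 3 without replicate 2 and 1 without replicate 3. Lost members numbered 3 without asynchronous replicate 2 and 4 without asynchronous replicate 3. With only peaks of a −log10 q of at least 5, 1 member was kept, and with lists of equal length 1 was kept and 0 were lost.

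Of the 7 kept genes, 5 are described: Rps10, Rps19, Rpl41, Rpl35 and Rpl4. Rps10 had Klf4 folds of 8.08, 7.26 and 4.63 in asynchronous cells and 4.81 and 3.49 in mitotic replicates 1 and 3. Rps19 had 5.39, 5.06 and 6.45, then 4.81 and 6.07 in mitotic replicates 1 and 2. At both genes a single region, the one whose promoter is printed above, held all 5 peaks: chr17:27634968-27635854 with its midpoint 167 bp upstream of the start of Rps10, and chr7:24883914-24884683, 293.5 bp upstream of that of Rps19.

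Rpl35 and Rpl41 also had a region with peaks of both states. At Rpl35 it was chr2:39004923-39005342, centred 1.5 bp upstream of the start, with 5.45, 3.01 and 6.78, then 4.33 and 4.41 in mitotic replicates 1 and 3. At Rpl41, which encodes the shortest ribosomal protein and had a second region with a peak of 2.95 in asynchronous replicate 2 only, it was chr10:128548964-128549366, centred 3.0 bp into the gene, with 4.34 and 6.51 in asynchronous replicates 2 and 3, then 6.74 and 5.08 in mitotic replicates 1 and 3. Rpl41 has Zc3h10 within 2 kb. Each of these 4 regions lacked a peak in 1 mitotic library.

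Rpl4 was kept as a gene but not at a single site. Rpl4 had 2.54 and 4.42 in asynchronous replicates 2 and 3 and 4.72 and 3.93 in mitotic replicates 2 and 3, in 4 separate regions of which none was in the asynchronous set.

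Rpl8 had the strongest Klf4 peaks of any member and was intermediate. Its region, chr15:76903841-76904247, had folds of 8.85, 7.68 and 13.3 in asynchronous cells and 3.81 in mitotic replicate 3 alone. Rps15 had 4.18, 4.05 and 10.5, then 4.72 in mitotic replicate 2. Rpl10, X-linked, had 5.39, 2.88 and 8.41, then 5.26 in mitotic replicate 3. Rpl8, Rps15 and Rpl10 were singled out after their values were seen. In the 10 intermediate genes the single mitotic peak came from replicate 1 at 2, replicate 2 at 3 and replicate 3 at 5.

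The 11 lost genes were 39.3% of the members of the asynchronous set, where 31.2% of all genes of that set were lost. They were 8 of the 15 large and 3 of the 13 small subunit genes of the set, a split that was not tested. The 5 with the highest mean folds were Rpl18, Rpl21, Rpl19, Rpl35a and Rpl3l. Rpl18 had 5.25, 5.78 and 6.54 in asynchronous cells, in a region that also lies within 2 kb of Sphk2. Rpl21 had 4.42, 4.73 and 7.83, in a region over the lower-coordinate edge of its own span with no other gene within 2 kb. Rpl19 had 3.55 and 6.70 in asynchronous replicates 2 and 3, beside Cacnb1, and Rpl35a had 4.55 and 5.54, beside Lmln. Rpl3l, with weak H3K27ac, had 6.01, 3.66 and 4.38 beside Msrb1. None of the 5 had a listed Klf4 peak in any mitotic library.

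**Figure D5:**
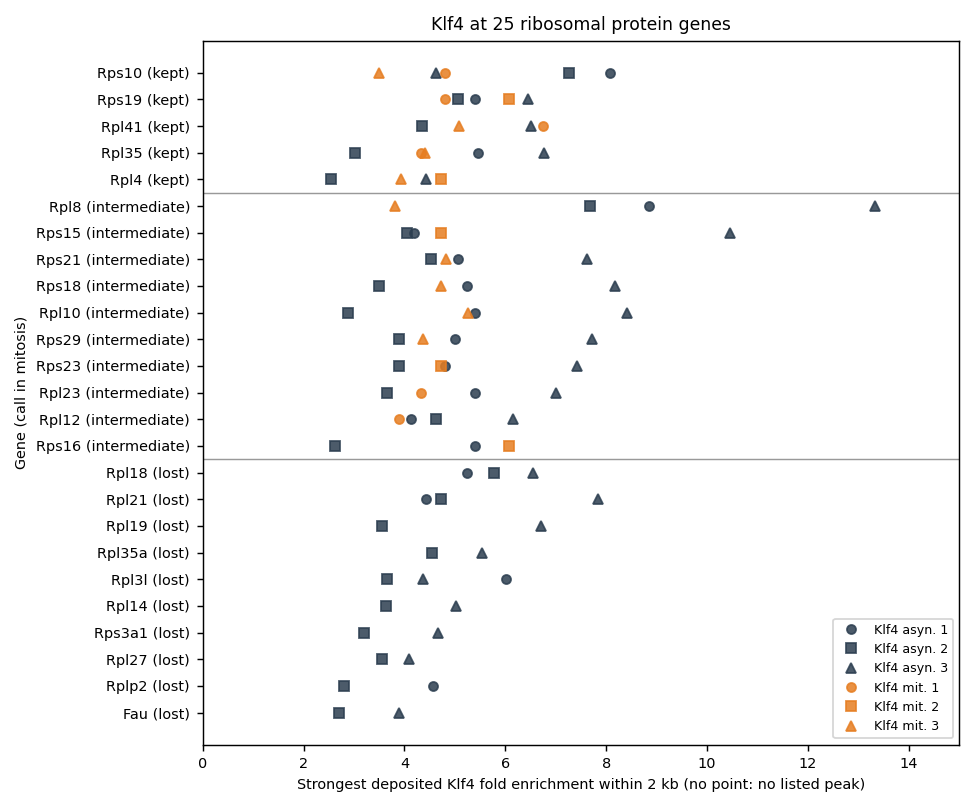
Strongest deposited Klf4 fold within 2 kb (x axis, linear) for 25 of the 28 members of the asynchronous set (rows, with their call) in 3 asynchronous (dark) and 3 mitotic (orange) libraries; a missing point is a library without a listed peak. Mitotic points run from 3.49 to 6.74, and the highest asynchronous point, 13.3, is Rpl8, which has 1 mitotic point.

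Klf4 regions lay at the starts, upstream and downstream of them. The members had 33 Klf4 regions in the asynchronous set, 26 of them at a gene with a listed start. Of these 26, 11 had their midpoint within 250 bp of a start, 7 lay further upstream and 8 further downstream. 5 of the 33 regions were kept (26.9% of all Klf4 regions of the asynchronous set were), 16 were lost (44.0%) and 12 were intermediate. Another gene lay within 2 kb of 13 of the 33 regions. These were 1 of the 5 kept regions (at Rpl41), 2 of the 12 intermediate and 10 of the 16 lost ones. No share over all Klf4 regions was set beside these counts, and the difference was not tested.

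Letters of the promoters were set against Klf4. Of the members with a promoter entry, 22 were in the Klf4 asynchronous set and 29 had no Klf4 peak in any library. CNCACCC was in 4 of the 22 (18.2%) and 6 of the 29 (20.7%). Of all genes in the Klf4 asynchronous set 40.8% had it, and of all genes without Klf4 24.7%. GGGCGG was in 17 of the 22 (77.3%) and 11 of the 29 (37.9%), beside 70.4% and 23.7% of all genes with and without Klf4. GGGCGG was added to the motifs after the promoters had been seen. CCGGAAG was in 8 of the 22 (36.4%) and 11 of the 29 (37.9%).

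H3K27ac folds were near each other at members with and without Klf4. The medians for the 28 members of the Klf4 asynchronous set were 33.0 and 30.4 in asynchronous cells and 15.1 and 16.4 in mitosis. Those of the 38 with H3K27ac and no Klf4 in any library were 30.5 and 27.1, then 15.2 and 14.4.

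Few ribosomal protein genes had an Oct4 or Sox2 peak. 4 members had an Oct4 peak in any of 3 libraries, where 12.0% of all genes and 3.22% of short genes did, and none was kept (1.98% of all genes). 1 member had a Sox2 peak, where 9.37% of all genes and 1.96% of short genes did. Without the single asynchronous library of each factor, 2 members had Oct4 and 0 had Sox2. In the asynchronous libraries 3 of 86 members had Oct4 (3.49%) and 1 had Sox2 (1.16%), against 7.25% and 5.58% of all genes and 2.26% and 1.24% of short genes.

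Rps29 had the highest Oct4 fold, 15.9, in mitotic replicate 2 only, at chr12:69159189-69159713 overlapping its Klf4 region. Rpl22l1 had Oct4 at chr3:28805216-28805573 with 4.50 in asynchronous cells and 6.18 in mitotic replicate 2. Rpl37, beside Card6, had 5.46 and Rpl9, beside Lias, had 4.31, both in asynchronous cells only. The Sox2 peak, 5.45 in asynchronous cells, lay at Rpl23 but 1591 bp outside its span, beside 1700001P01Rik and inside the strongest of its Klf4 regions.

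Other genes of protein synthesis were counted in the same lists. Of 38 translation factor genes 37 were kept for H3K27ac, of 34 ribosome biogenesis genes 33, and of 78 mitochondrial ribosomal protein genes 70, with 3 lost and 4 intermediate. Over all genes, 45.5% were kept for H3K27ac, 6.44% lost and 6.07% intermediate. For Klf4, 23 translation factor genes were in the asynchronous set (60.5%), with 12 kept and 3 lost. Ribosome biogenesis genes had 16 (47.1%), with 5 kept and 7 lost. Mitochondrial ribosomal protein genes had 24 (30.8%), with 12 kept and 5 lost. Over all genes, 37.2% were in the Klf4 asynchronous set. Kept genes were thus 52.2%, 31.2% and 50.0% of each asynchronous set, beside 25.0% for the cytosolic ribosomal proteins and 39.6% for all genes. The 25.0% rests on 7 of 28 members, and the 7 fell to 3, 3 and 1 with mitotic replicate 1, 2 or 3 left out. These differences were not tested.

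Of the 9 genes of these lists with the highest Klf4 folds, 3 from each, 7 were called kept. Over all genes of the Klf4 asynchronous set, 39.6% were kept. The 9 were picked for high asynchronous folds, and no share for genes of like fold was set beside their count. Eif1, which selects the start codon, had 7.79, 5.77 and 11.1 in asynchronous cells and 6.06 and 7.04 in mitotic replicates 1 and 3. Pabpc1, the poly(A) binding protein, had 4.92, 4.33 and 12.5, then 6.26, 6.07 and 3.88. Mrpl45 of the mitochondrial large subunit had 10.5, 7.79 and 13.4, then 7.70, 4.72 and 10.2. Ubtf, which drives ribosomal RNA transcription, had 5.17, 4.15 and 10.3, and no mitotic peak.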

How the data were processed

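The tools named in the submitters' processing notes are cutadapt 1.8.1, Bowtie2 2.2.5, deepTools 2.3.6 and MACS2 2.1.1, with the build mm10. Each deposited list held the peaks of 1 library, with a fold (a ratio over local background) and −log10 p and q values from the authors' peak caller. The lowest deposited −log10 p was 5.00, and read depth was unknown. The deposited lists gave no read counts, so differences were tested over libraries with two-sided exact permutation tests and Benjamini-Hochberg adjustment over 9 comparisons.

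Computation used pandas 2.3.3, numpy 2.4.6, statsmodels 0.14.6 and scipy 1.17.1 in Python 3.11.15, and figures used matplotlib 3.10.9. The calling functions were tested on simulated peaks. Coordinates are 1-based mm10. Gene spans came from RefSeq GRCm38.p6, and promoters of 66 of the 86 members matched by symbol. Klf4 peaks were merged into regions where they shared at least 1 bp. 7 inputs without a list and the Klf4 library of a mix of 10% stem cells and 90% neural progenitors stayed out of all comparisons between groups.

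Members and lists were chosen with earlier results of these data known. Named genes were the 10 strongest by mean asynchronous fold with Klf4 kept (7 existed), the 5 strongest with Klf4 lost, up to 8 with Oct4 or Sox2, those without H3K27ac or with it lost, the 5 with the most and the 5 with the fewest covered H3K27ac bases, up to 5 with a mitotic-only call per antibody, Rpl5, Rpl11, Rps6, Rps19, Rpsa, Rplp0, Fau and Rps4x, and up to 3 per gene list. Printed promoters were to be the strongest kept and lost ones. Promoters overlapped by a Klf4 region were ranked by the mean asynchronous fold of that region, and the 2 strongest of each call were printed instead. 3 members enter the counts but are not reported here by name or drawn as rows. Alternatives changed the window, the linking rule, the threshold, the list length, the members and the libraries.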

Additional observations from a re-analysis of the deposited data

How the results depend on the processing

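No paired analysis was possible because the results came from peak lists without a model, and replicate numbers of a state did not name shared cultures. Of the alternative values computed, 91 kept their direction or stayed within 1.5 times the reported count, 28 moved and 2 reversed. The H3K27ac difference in the share of members, 1.16 points, became -6.68 with the share of all genes subtracted, -6.87 with that of short genes (added after seeing the data), and 0 with lists of equal length and without l-suffix paralogs. Lists of equal length gave a Klf4 difference of 0, 1 Klf4 kept, 0 lost, 1 Oct4 and 0 Sox2 member. A −log10 q of at least 5 gave a Klf4 difference of 17.8 points (p = 0.2, exact permutation), a difference of -4.97 in kb 2 and 3 of H3K27ac with overlapping groups (p = 0.667, exact permutation), 1 Klf4 kept, 2 H3K27ac lost, 2 Oct4 and 0 Sox2. Klf4 kept was 17 where 1 mitotic library sufficed. A 1 kb window gave 0 Sox2 members and a 5 kb window 2. Members with no other gene within 2 kb, a choice made after seeing the data, gave 3 Klf4 kept, 4 Klf4 lost, 40 H3K27ac kept, 2 Oct4 and 0 Sox2, out of 41 members. Leaving out each library gave Klf4 differences of 19.4 to 28.1 points, 1 to 7 Klf4 kept, 3 to 16 lost, 83 to 84 H3K27ac kept, 0 to 1 lost, 2 to 4 Oct4 and 0 to 1 Sox2. The upstream kb of H3K27ac then differed by 5.64 to 9.97 points and kb 2 and 3 after the start by -10.8 to -6.09. Unknown depth limits every statement on a missing peak.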

Other observations

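Genes with similar symbols that are not ribosomal proteins were read in the same lists. Rps6ka5, a kinase, was the only one of the 16 left-out symbols called kept for Sox2, a call made for 2.46% of all genes. Its Sox2 folds were 7.91 in asynchronous cells and 9.01 and 4.65 in mitosis. Its Oct4 folds were 9.42 in asynchronous cells and 9.30 in mitotic replicate 2. Rps23rg1, a retrotransposed copy, had Klf4 folds of 5.39, 4.72 and 17.0 in asynchronous cells and 6.41 and 12.5 in mitotic replicates 1 and 3. Rps6kb2, Rps6ka4 and Rps6ka6 had H3K27ac in both asynchronous libraries and in no mitotic one, with asynchronous folds from 4.67 to 8.36. Such a loss was called for 6.44% of all genes. Rpl34-ps1 and Rpl31-ps12 had no peak in any library. In the Klf4 library of 10% stem cells and 90% neural progenitors, which listed 1334 peaks, 0 of 86 ribosomal protein genes had a peak, against 2.43% of all genes and 0.489% of short genes. These genes were singled out after their values were seen.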
